A study of Mus musculus with 21 samples.

Results

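Nucleic acid sensors are described here in the neocortex of rNLS8 mice, a mouse model of TDP-43 pathology. The set holds 10 genes picked by symbol out of 48474 rows of the deposited count table: the RNA sensors Ifih1, Dhx58, Zbp1, Eif2ak2, Tlr3 and Tlr7, the DNA sensors Tlr9 and Aim2, the adaptor Mavs and the exonuclease Trex1. Bulk RNAseq was available for 10 rNLS8 mice, labelled TG, and 11 monogenic littermates, labelled WT. rNLS8 mice carry a tTA driver under the neurofilament heavy chain promoter and a tetO transgene for human TDP-43ΔNLS, which lacks the nuclear localization signal, so that expression is almost exclusively neuronal. Mice of both genotypes had received a non-targeting ASO (antisense oligonucleotide) at an age of 17 to 19 weeks, 350 µg in a volume of 10 µL by intracerebroventricular injection, so that no mouse was free of an injected nucleic acid. The diet contained 200 mg/kg doxycycline, which keeps the transgene off, until 2 weeks after the injection, and tissue was collected after a further 3 weeks without it. The labels name the tissue neocortex, whereas the study's methods name brain cortex and one of its legends hippocampus, and the labels are followed here. The mice fell into batch A (4 WT and 3 TG mice) and batch B (7 WT and 7 TG mice). Sex is not given in the labels.

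Cells recognize foreign or misplaced nucleic acids with receptors that differ in place and ligand. MDA5 (encoded by Ifih1) and its relatives RIG-I and LGP2 are cytosolic helicases for double-stranded RNA, and MDA5 and RIG-I signal through MAVS on mitochondria. TLR3, TLR7 and TLR9 survey endosomes for double-stranded RNA, single-stranded RNA and CpG DNA, while ZBP1 binds Z-form nucleic acids, PKR (encoded by Eif2ak2) halts translation when it binds double-stranded RNA, and AIM2 builds an inflammasome on cytosolic DNA. TREX1 degrades cytosolic DNA. Several of these receptors are themselves interferon-stimulated genes, and in the brain microglia are the cells best known for endosomal Toll-like receptors and AIM2.

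The libraries held 20700912 to 22263809 counted reads. Over all 19052 genes tested by edgeR with batch as covariate, 22.4% were higher and 21.2% were lower in TG mice at an adjusted p-value under 0.05, so a single call is common in this comparison. Of all calls 51.3% were higher, and 68% under scaling by library size alone. Tardbp, the mouse TDP-43 gene, had 4403 to 5054 normalized counts in TG and 2510 to 2829 in WT mice of batch B, whereas in batch A the TG mice (2362 to 3084) overlapped the WT mice (2254 to 2646). Normalized counts are reads scaled to the mean effective library size. TG mouse T61340 had the lowest of these TG values, and the sources used here do not say how reads of the human transgene were counted. The 8 neocortical excitatory markers summed to 428 to 555 CPM (counts scaled to the library size) in WT and 420 to 498 in TG mice, and, since the sources differ on the region, 6 hippocampal neuron markers were summed too, to 28.3 to 82 and 24.5 to 52.3. Choroid plexus markers ranged from 19.6 to 2199 CPM in WT and from 28.3 to 1122 in TG mice.

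Of the 10 genes, 9 passed the filter on low counts and 6 of these were higher in TG mice (66.7%, against 22.4% of all genes tested). They were Zbp1, Dhx58, Eif2ak2, Ifih1, Aim2 and Tlr7. No gene of the set was lower in TG mice, with 0 at an unadjusted p-value under 0.05 both in edgeR and in DESeq2. Tlr9, Tlr3 and Mavs did not pass the threshold, and Trex1 had no count in any mouse. Zbp1 had at most 8 reads in any WT mouse and therefore passed the filter only through TG mice. Among the other 8 genes tested, 5 were higher and 0 were lower. The set was chosen with earlier results of these data known, so these shares are a description. For Ifih1, Eif2ak2 and Zbp1 all 10 TG mice lay above all 11 WT mice, which holds for 3.71% of the genes tested.

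**Figure D1:**
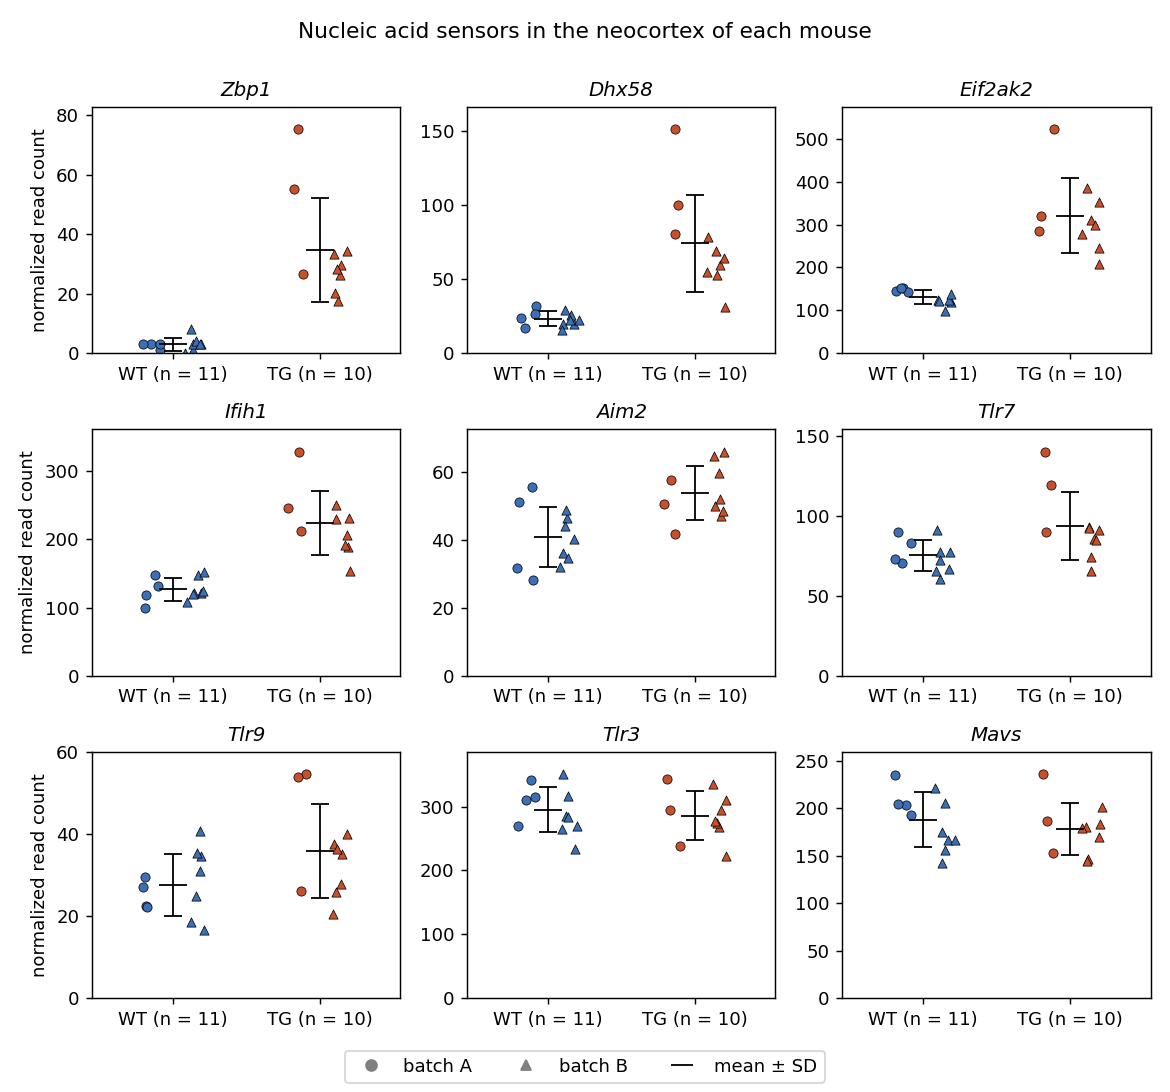
Normalized read counts (vertical axes, linear from 0) of the 9 tested genes in each mouse, with WT mice in blue, TG mice in orange, batch A as circles, batch B as triangles and black bars for mean ± SD. Zbp1, Eif2ak2 and Ifih1 separate the genotypes, while Tlr3 and Mavs overlap over nearly their whole range.

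The cytosolic RNA helicases were higher in TG mice while their adaptor was not. Ifih1 (chromosome 2 of GRCm38.p6, 62595618 to 62646255) ranged from 99.9 through a median of 121 to 152 normalized counts in WT mice, and from 153 through 222 to 329 in TG mice. The lowest TG mouse, T_70267, lay just above the highest WT mouse. Its log2 fold change of TG over WT (log2FC) was 0.83 with a standard error (SE) of 0.10, or 1.77-fold, at adjusted p = 4.27e-07 by the quasi-likelihood test of edgeR. Dhx58 (chromosome 11, 100694884 to 100704271) encodes LGP2, which lacks signalling domains of its own and modulates MDA5 and RIG-I. It ranged from 15.7 through 22.5 to 31.8 normalized counts in WT and from 31.4 through 66.6 to 151 in TG mice. All but 1 TG mouse exceeded the whole WT group, and T_70267 was level with the highest WT mouse. Its log2FC reached 1.67 (SE 0.17, adjusted p = 2.39e-08). Mavs (chromosome 2, 131234063 to 131248025) ranged from 142 through 193 to 235 in WT and from 144 through 180 to 236 in TG mice. The groups covered the same range, and the log2FC of -0.06 (SE 0.086, adjusted p = 0.586) became 0.02 with scaling by library size only.

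Other parts of the RIG-I-like receptor pathway were read from a list of 12 partners, with 5 higher and 2 lower in TG mice (all genes 22.4% and 21.2%) and a median log2FC of 0.16 against 0.00 over all genes. Ddx58, which encodes RIG-I, ranged from 83.6 to 115 normalized counts in WT and from 177 to 436 in TG mice, with no overlap and a log2FC of 1.47 (SE 0.11, adjusted p = 6.99e-11). Trim25, a ubiquitin ligase that acts on RIG-I, ranged from 134 to 213 in WT and from 249 to 585 in TG mice, a log2FC of 0.98 (SE 0.11). Ddx60, a helicase described as a cofactor of these receptors, had 8.35 to 27.9 in WT and 38.2 to 175 in TG mice, a log2FC of 2.25 (SE 0.25, adjusted p = 9.8e-08). Zc3hav1, an antiviral RNA-binding protein, and the helicase Dhx33 were higher too, by 0.74 and 0.18 on the log2 scale. Dhx33 was not called in batch A alone, at 0.27. Dhx36 and G3bp1 were lower by -0.15 and -0.12, and neither call was made with scaling by library size only, without the batch term, in either batch alone or without T60303 and T61340. The G3bp1 call was also lost with no filter, with Xist as covariate and on leaving out any of 12 single mice (TG mice T_70267, T_70252, T_69531, T_70261, T60303 and T61340 and WT mice T_70264, T_70256, T_69527, T_69523, T61334 and T61345). Thus 3 RIG-I-like helicases were higher by 0.83 to 1.67 on the log2 scale in the same mice in which Mavs did not differ beyond its spread.

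Promoter windows of 250 bases before to 50 bases after the start were taken from RefSeq for GRCm38.p6 and matched 7 of the 10 genes, not Dhx58, Zbp1 or Tlr7. They were searched on both strands for the interferon-stimulated response element (GAAA, any 2 bases, GAAA) and for the gamma-activated site (TTC, any 3 bases, GAA), whose matches do not overlap each other in these windows. The response element was found in Ifih1 and Eif2ak2, once each, and not in Tlr3, Tlr9, Mavs, Aim2 or Trex1, and 3.44% of all 32851 windows hold it. Both matches lie after the RefSeq start, at positions 33 and 19. They are shown because Ifih1 and Eif2ak2 are the called genes whose windows hold the letters, with the match in capitals, on the minus strand at chr2:62646206-62646235 and chr17:78882535-78882564.
Ifih1 site: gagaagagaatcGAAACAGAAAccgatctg
Eif2ak2 site: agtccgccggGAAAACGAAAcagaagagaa
The upstream 250 bases of Eif2ak2 (minus strand, chr17:78882573-78882822) hold the gamma-activated letters at position -178, in capitals below, which 8.3% of all windows contain. The upstream bases of Mavs (plus strand, chr2:131233813-131234062), a gene of the set that was not called, are set beside them and match neither motif. The window of Aim2, which was called, matches neither motif either.
Eif2ak2 upstream: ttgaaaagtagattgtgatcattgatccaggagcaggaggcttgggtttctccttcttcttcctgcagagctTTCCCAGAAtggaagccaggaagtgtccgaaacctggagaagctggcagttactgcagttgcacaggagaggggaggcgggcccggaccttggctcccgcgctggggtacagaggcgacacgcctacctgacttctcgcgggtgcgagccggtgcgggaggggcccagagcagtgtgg
Mavs upstream: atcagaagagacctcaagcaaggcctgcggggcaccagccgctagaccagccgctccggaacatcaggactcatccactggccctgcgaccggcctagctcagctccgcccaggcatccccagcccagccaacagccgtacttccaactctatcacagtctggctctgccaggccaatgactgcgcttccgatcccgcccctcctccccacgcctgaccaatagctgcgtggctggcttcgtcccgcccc
These matches describe letters in a window, and binding of a factor was not measured.

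Zbp1 had the largest fold change of the set and the lowest level in WT mice. Zbp1 (chromosome 2, 173206612 to 173218959) ranged from 0 through 3.1 to 8.25 normalized counts in WT mice and from 17.6 through 29 to 75.4 in TG mice. In raw reads this was 32 over all WT mice and 361 over all TG mice, and 1 WT mouse had none. This gave a log2FC of 3.49 (SE 0.30), or 11.2-fold, with adjusted p = 1.6e-09 from edgeR. ZBP1 can trigger necroptosis through RIPK3 and MLKL and apoptosis through caspase-8. Of 7 genes listed for this pathway 5 were tested, and Ripk1 was the only call, a share near the 22.4% of all genes. Ripk1 ranged from 106 to 138 normalized counts in WT and from 111 to 189 in TG mice, a log2FC of 0.22 (SE 0.084, adjusted p = 0.0339), and this call was lost in 9 of 34 alternatives, including those without TG mouse T60303, T_70263 or T_69531 or WT mouse T_70262, T_69527 or T61331 (adjusted p from 0.0529 to 0.099). Casp8 was at 0.20 (adjusted p = 0.199) and Fadd at -0.01 (adjusted p = 0.967). Ripk3 and Mlkl were too low for the filter of the main test, with 21 and 57 reads over all WT mice and 46 and 76 over all TG mice. With no filter all 7 genes were tested, and Ripk1 remained the only call.

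Eif2ak2 (chromosome 17, 78850504 to 78882572) had the smallest adjusted p-value of the set. PKR phosphorylates the translation factor eIF2α. Its gene ranged from 97.9 through 125 to 153 normalized counts in WT mice and from 209 through 305 to 523 in TG mice. No TG mouse reached down into the WT range. The log2FC was 1.31 (SE 0.11), or 2.48-fold, with adjusted p = 5.83e-10. Gm26637, a noncoding gene on the opposite strand, shares 174 exonic bases with Eif2ak2 and had 1 to 20 reads per mouse, and the sources used here do not say whether counting used strand. Among 7 genes of the eIF2α kinases and phosphatase, 5 were higher (all genes 22.4%), none was lower and the median log2FC was 0.19. The other kinases Eif2ak1, Eif2ak3 and Eif2ak4, which respond to haem shortage, misfolded proteins and amino acid shortage, were higher by 0.23, 0.21 and 0.19 on the log2 scale (SEs 0.049, 0.042 and 0.050). Ppp1r15a, the inducible phosphatase subunit that reverses the phosphorylation, was higher by 0.46 (SE 0.083, adjusted p = 7.3e-05). In batch A alone none of the 5 higher genes was called, at log2FCs of 0.34 for Eif2ak1, 0.31 for Eif2ak3, 0.31 for Eif2ak4, 0.16 for Eif2s1 and 0.56 for Ppp1r15a, and Eif2ak4 was not called in batch B alone.

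Among the endosomal receptors, Tlr7 was modestly higher in TG mice, Tlr9 was not called and Tlr3 overlapped between genotypes. Tlr7 (chromosome X, 167303380 to 167330574) ranged from 60.1 through 72.8 to 90.9 normalized counts in WT and from 65.6 through 90.4 to 140 in TG mice. The groups separated in part, as 5 TG mice lay above all WT mice and the others lay among them. The log2FC was 0.32 (SE 0.098, adjusted p = 0.00973), and it was not called within batch A (0.58, adjusted p = 0.0744) or batch B (0.19, adjusted p = 0.166). Tlr7 is X-linked, and Xist exceeded 1000 normalized counts in all 7 mice of batch A, and in batch B in 3 of 7 WT and 1 of 7 TG mice. With Xist as an added covariate the value was 0.34 (adjusted p = 0.00923). Tlr9 (chromosome 9, 106222598 to 106226876) ranged from 16.7 through 27.1 to 40.7 in WT and from 20.6 through 35.8 to 54.7 in TG mice, where T60303 and T61342 exceeded every WT mouse. Its log2FC of 0.38 (SE 0.18) had adjusted p = 0.0909, and leaving out TG mouse T_70267 or WT mouse T_70260, or scaling by library size only, gave 0.044, 0.0403 and 0.0395. Tlr3 (chromosome 8, 45395665 to 45411075) ranged from 234 through 285 to 351 in WT and from 222 through 286 to 344 in TG mice. Its medians differed by a single normalized count, and the log2FC was -0.04 (SE 0.079, adjusted p = 0.737), or 0.04 with scaling by library size only.

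Of 9 partners of the endosomal receptors, 8 were tested, 6 were higher and 1 was lower in TG mice (all genes 22.4% and 21.2%), with a median log2FC of 0.31. Unc93b1, the chaperone that carries these receptors to endosomes, ranged from 235 to 301 normalized counts in WT and from 277 to 500 in TG mice (log2FC 0.34, SE 0.067, adjusted p = 0.000199). Ctss, a protease that cleaves the receptors in the endosome, ranged from 1172 to 1413 in WT and from 1522 to 2962 in TG mice, with no overlap and a log2FC of 0.86 (SE 0.070). Cd14, a coreceptor, and Tlr13, the mouse receptor for bacterial ribosomal RNA, were higher by 0.56 and 0.47 on the log2 scale. Lgmn and Cnpy3 were higher by 0.28 and 0.22, and the endoplasmic reticulum chaperone Hsp90b1 was lower by -0.17, a call lost with library size only, without the batch term and in batch A alone. Tlr13 and Cnpy3 were not called in batch A alone either, at 0.60 and 0.29. Many of these genes are expressed by microglia. Of 10 microglia markers 3 were higher (among them Tmem119 by 0.18 and Csf1r by 0.13), 1 was lower (P2ry12 by -0.35), and their summed level was 414 to 468 CPM in WT and 432 to 579 CPM in TG mice. The part of these markers in the receptor results was not tested. In bulk tissue, a change in the number of cells of a type and a change in RNA per cell cannot be told apart.

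Aim2 (chromosome 1, 173349547 to 173466040) was modestly higher in TG mice. It ranged from 28.2 through 40.2 to 55.4 normalized counts in WT and from 41.8 through 51.2 to 65.9 in TG mice. Every TG mouse lay above the WT median, and 4 lay above all WT mice. The log2FC was 0.39 (SE 0.12), or 1.31-fold, with adjusted p = 0.0109. It was called in batch B (0.45, adjusted p = 0.00834) and not in batch A (0.29, adjusted p = 0.554). The neuronal adhesion gene Cadm3 lies within the span of Aim2 on the opposite strand, shares no exonic base with it and had 8509 to 14167 reads per mouse. Cadm3 was itself higher by 0.30 on the log2 scale (SE 0.057, adjusted p = 0.000157), and its part in the Aim2 counts was not tested.

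Trex1 (chromosome 9, 109057932 to 109059723) was listed at 0 in all 21 mice, which gives no measure of its expression. All 1147 of its exonic bases in GENCODE M21 also lie in exons of Atrip on the same strand. The Atrip row held 1 read in a single mouse, and a row for the joint transcript Atrip-trex1 held 9 to 17 reads per WT mouse and 8 to 16 per TG mouse. The joint row did not differ beyond its spread (log2FC -0.12, SE 0.15, adjusted p = 0.61). Why the separate rows were empty was not tested.

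Around Aim2 and Trex1, the list for cytosolic DNA sensing and inflammasomes had 12 genes higher and 1 lower among 16 tested (all genes 22.4% and 21.2%), with a median log2FC of 0.82. Of these, 7 (Ifi204, Ifi206, Ifi207, Ifi209, Ifi211, Ifi213 and Casp4) had fewer than 10 reads in every WT mouse and so passed the filter only through TG mice. Among the other 9, 5 were higher and 1 was lower, with a median of 0.43. Most of the 7 belong to the interferon-inducible Ifi200 family, as does Aim2. Ifi206 had 7 reads over all WT mice and 177 over all TG mice, Ifi209 had 32 and 360, and Ifi204 had 60 and 585, and in each of them every TG mouse was above every WT mouse. Their fitted log2FCs of 4.50, 3.48 and 3.31 (SEs 0.41, 0.30 and 0.24) rest on these few WT reads. The members of this family are close copies, so that reads may have been assigned to the wrong one. The DNA sensor Cgas (0.33, adjusted p = 0.103) and its adaptor Sting1 (0.21, adjusted p = 0.126) were not called, although both passed with scaling by library size only (0.0415 and 0.0381), Cgas without WT mouse T_69527 (0.0497) or TG mouse T_69524 (0.0483), and Sting1 with Xist as covariate (0.0386). Pycard, the inflammasome adaptor, was higher by 0.47 (adjusted p = 0.00811). Its call was lost without T60303 and T61340 (0.34, adjusted p = 0.0744) and in batch A alone (0.55, adjusted p = 0.219). The inflammasome protease Casp1 was at 0.05 (adjusted p = 0.812), its relative Casp4 was higher by 1.45, and the cytokine Il18 was lower by -0.24. The Il18 call was lost in 11 of 34 alternatives, namely library size only, no filter, either batch alone, and without TG mouse T_70252, T_69524, T61340 or T61342 or WT mouse T_70260, T61333 or T61331. The number of higher genes in this list was 15 of 19 in DESeq2 with batch and 13 of 19 without it, 14 of 19 with no filter, 7 of 12 in edgeR without the batch term, 8 of 12 with the filter by genotype group, and 3 of 7 when 10 reads were required in every mouse. With the same 16 genes tested it was 14 with library size only, 10 without T60303 and 9 without T60303 and T61340. It was 6 of 15 in batch A alone and 6 of 12 in batch B alone, against 6.99% and 19.3% of all genes.

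Enzymes that clear or edit nucleic acids were called in both directions, as were all genes (22.4% higher and 21.2% lower). Of 17 listed, 15 were tested, 6 were higher and 4 were lower in TG mice, with a median log2FC of 0.04. Without T60303 and T61340 the number higher was 3, and in batch A alone 2 were higher and 1 was lower. Samhd1, a nucleotide hydrolase, ranged from 254 to 330 normalized counts in WT and from 335 to 434 in TG mice (log2FC 0.40, SE 0.057, adjusted p = 3.9e-06). The exonuclease Pld4 and the lysosomal nuclease Dnase2a were higher by 0.57 and 0.52 on the log2 scale. Lsm11, which encodes a histone pre-mRNA processing factor rather than a nuclease, ranged from 493 to 805 in WT and from 322 to 421 in TG mice and was lower by -0.75 (SE 0.062, adjusted p = 8.38e-10). Rnaseh2c and the editing enzyme Adarb1 were lower by -0.45 and -0.35. Adar, which edits double-stranded RNA that MDA5 would otherwise bind, was at -0.02 (SE 0.047, adjusted p = 0.71), a value that became 0.05 with scaling by library size only.

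Downstream of the sensors, 5 of 17 genes for interferon-inducing signalling were higher and 2 were lower, with a median log2FC of 0.15, against 22.4% higher and 21.2% lower of all genes, so the list is described by its members rather than its count. In batch A alone 2 were higher and none was lower, and no gene was lower with library size only. Irf7, an interferon-inducible transcription factor, ranged from 37.5 through 45.9 to 78.4 normalized counts in WT and from 151 through 407 to 962 in TG mice. Its lowest TG value was above the whole WT range, and the log2FC was 3.21 (SE 0.20, adjusted p = 6.15e-12). Irf3, its constitutive relative, was at 0.09 (adjusted p = 0.356) and Myd88, the adaptor of TLR7 and TLR9, at -0.01 (adjusted p = 0.908). Ticam1, the adaptor of TLR3, and Tbkbp1 were higher by 0.33 and 0.53, while the kinase Tbk1 was lower by -0.18 (adjusted p = 0.00325). The Tbk1 call was lost with scaling by library size only (-0.11, adjusted p = 0.0923) and in batch A alone (-0.14, adjusted p = 0.456). Ticam1 was not called in batch A alone either (0.45, adjusted p = 0.0611). The 20 interferon genes listed (Ifnb1, the interferon alphas, Ifne, Ifnk, Ifng and the lambdas) held no read in any WT mouse and 6 reads in all TG mice together, never more than 1 per gene and mouse. At this depth 3 reads in a mouse correspond to 0.135 to 0.145 CPM, so levels under that in a single mouse cannot be told from 0.

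The list of brakes on MAVS signalling had 4 genes higher and 3 lower among 14, with a median log2FC of -0.03, which is near the 22.4% higher and 21.2% lower of all genes. In batch A alone 3 were higher and 1 was lower. Usp18, which restrains interferon receptor signalling, ranged from 12.5 to 38.2 normalized counts in WT and from 54.9 to 350 in TG mice (log2FC 2.97, SE 0.22). Nlrc5, better known as an activator of MHC class I genes, was higher by 2.01, and the ubiquitin ligase Rnf5 by 0.95, each with no overlap between the groups. The deubiquitinase Cyld, the mitochondrial protein Nlrx1 and the ubiquitin ligase Smurf1 were lower by -0.75, -0.23 and -0.22.

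**Figure D2:**
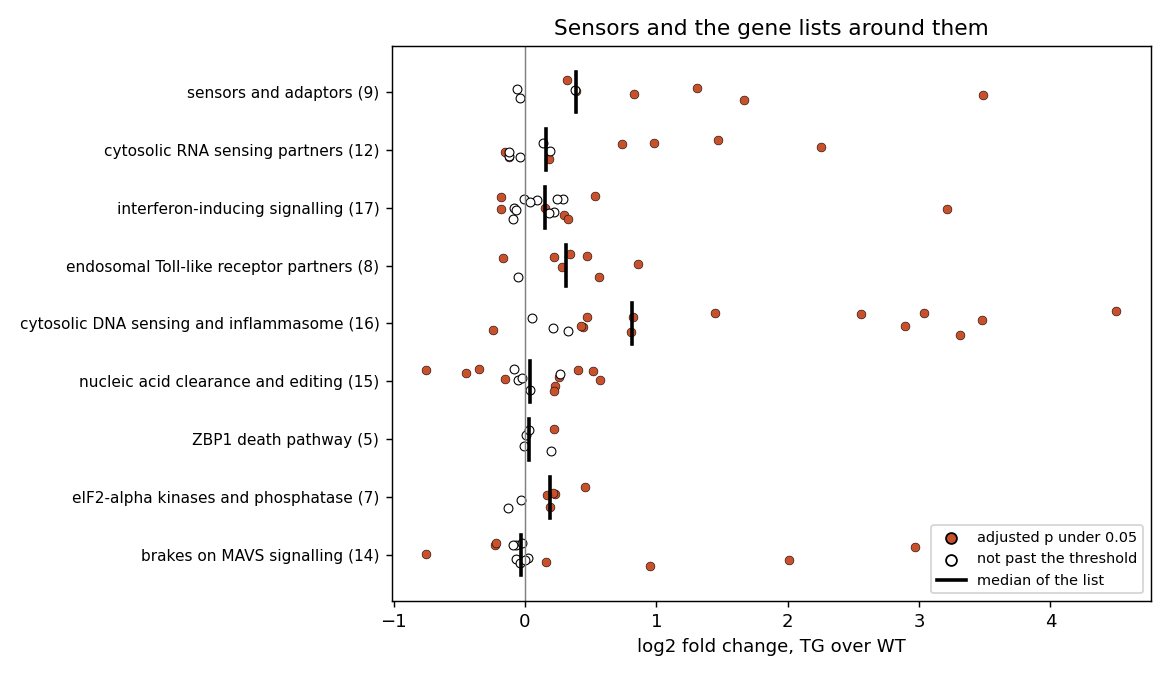
Log2 fold change of TG over WT mice (horizontal axis) for the sensors and each gene list, with 1 point per tested gene (number tested in brackets), filled where the adjusted p-value was under 0.05, and a black bar at the median of the list. The sensors have a median of 0.39 and the DNA sensing list of 0.82, or 0.43 without the 7 genes that passed the filter only through TG mice, and the clearance enzymes of 0.04.

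Levels of different genes were compared as CPM per kilobase of GENCODE exon. In WT mice Tlr3 (2.65 ± 0.319, SD, n = 11) and Mavs (2.63 ± 0.404) were highest and overlapped in their spread. Eif2ak2 followed at 1.2 ± 0.154, and Tlr7 (0.861 ± 0.112) and Ifih1 (0.726 ± 0.0964) came next, again within each other's spread. Aim2 stood at 0.545 ± 0.12, Tlr9 at 0.371 ± 0.101 and Dhx58 at 0.331 ± 0.0723. Aim2 overlapped in its spread with both Ifih1 and Tlr9, and Tlr9 with Dhx58. Zbp1 was lowest at 0.0398 ± 0.0283. In TG mice Eif2ak2 (2.94 ± 0.797, SD, n = 10) was level with Tlr3 (2.57 ± 0.35) and Mavs (2.49 ± 0.383). Ifih1 (1.29 ± 0.271), Tlr7 (1.07 ± 0.245) and Dhx58 (1.06 ± 0.467) overlapped, Aim2 stood at 0.718 ± 0.105, and Zbp1 (0.461 ± 0.234) reached the level of Tlr9 (0.483 ± 0.155).

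**Figure D3:**
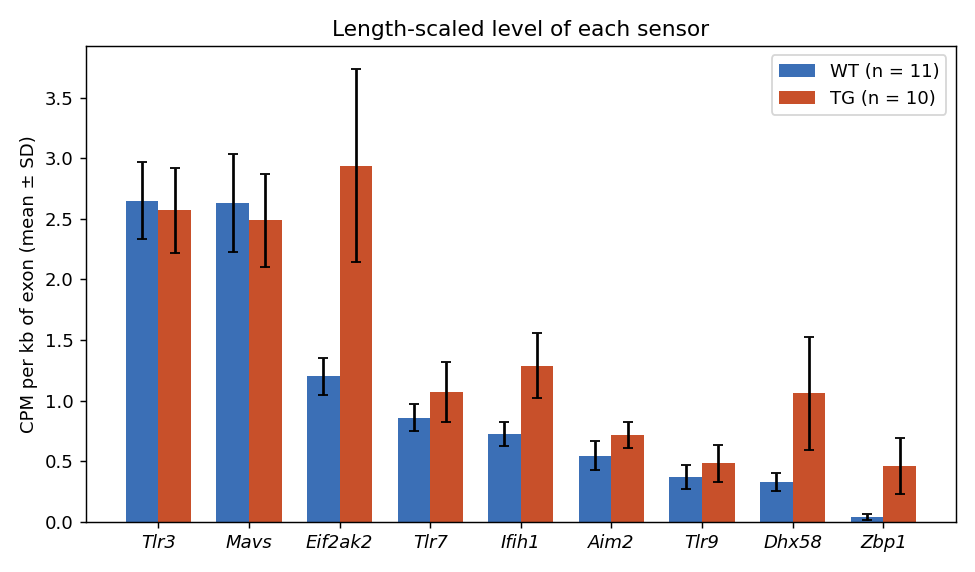
CPM per kilobase of exon (vertical axis, linear from 0) of each gene, as mean ± SD over 11 WT mice (blue) and 10 TG mice (orange), ordered by the WT mean. Eif2ak2 moves from 1.2 in WT to 2.94 in TG mice, level with Tlr3 and Mavs.

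Within batch A alone, 4 of the 9 tested genes were higher in TG mice (Zbp1, Dhx58, Eif2ak2 and Ifih1), against 6.99% of all genes. Within batch B alone, 5 were higher (the same 4 and Aim2), against 19.3% of all genes. The log2FC of Zbp1 was 4.29 (SE 0.47) in batch A and 3.02 (0.33) in batch B, and that of Dhx58 was 2.17 (0.28) and 1.39 (0.18). Ifih1 had 1.11 (0.19) and 0.69 (0.11), and Eif2ak2 had nearly equal values of 1.37 (0.20) and 1.28 (0.12). For Tlr9 the values were 0.85 (0.29) and 0.14 (0.20). The interaction of genotype and batch was called for 0% of 19537 genes by edgeR, with 1095 at an unadjusted p-value under 0.05, and for 1 of 35143 by DESeq2, with 1189. In the set Dhx58 alone had an unadjusted p under 0.05 in edgeR (difference of batch B minus batch A -0.75, SE 0.33, p = 0.0327, adjusted p = 0.854). A difference between the batches was therefore not shown for any sensor, and with 3 TG mice in batch A the SEs of these differences were 0.17 to 0.70 on the log2 scale.

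**Figure D4:**
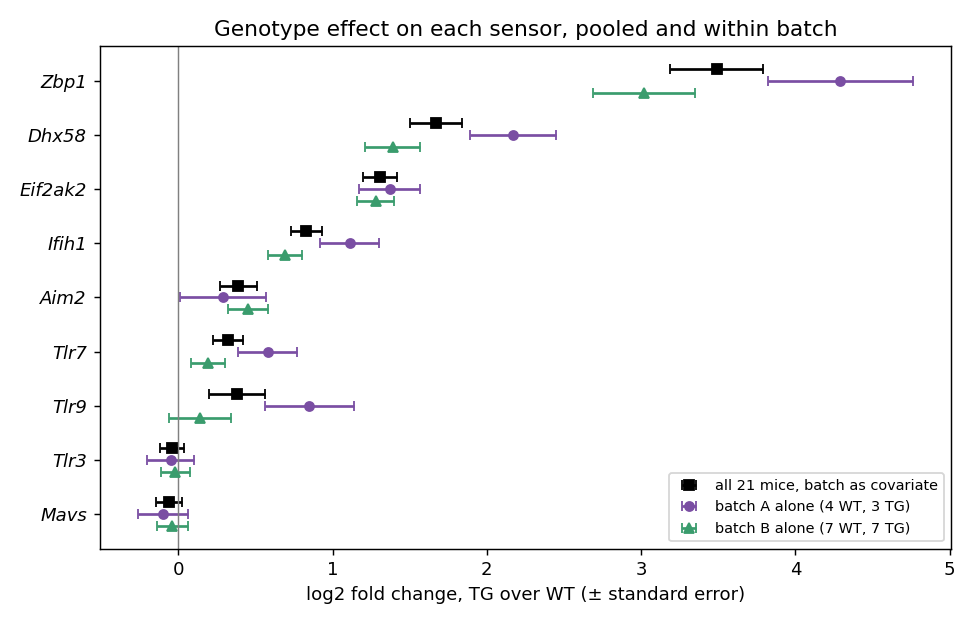
Log2 fold change of TG over WT mice (horizontal axis) with its SE for each sensor, fitted over all 21 mice with batch as covariate (black squares), in batch A alone (purple circles) and in batch B alone (green triangles). Zbp1 lies at 3.49, 4.29 and 3.02 and Eif2ak2 at 1.31, 1.37 and 1.28, while Tlr3 and Mavs lie near 0 in each fit.

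The same TG mice stood at the extremes for most sensors. T60303 of batch A had the highest TG level of 8 of the 9 tested genes, the exception being Aim2, and T_70267 of batch B had the lowest of 7, the exceptions being Mavs and Aim2. Against the WT mean of the same batch, the median log2 ratio over the 6 called genes was 1.60 in T60303 and 0.58 in T_70267, and between 0.78 and 1.31 in the other TG mice. T60303 also had the highest sum of microglia markers among TG mice (579 CPM) and the lowest sum of 8 neuronal markers (4623 CPM, against 5868 to 7244 in WT mice), and T_70267 had the lowest microglia sum (432 CPM). The genes share a library in each mouse, and the part of cell composition in this spread was not tested. T61340, whose Tardbp level was inside the WT range of its batch, lay above every WT mouse for Zbp1 (55.4 normalized counts), Dhx58 (99.8), Eif2ak2 (321) and Ifih1 (246). Without T60303 and T61340 the same 6 genes were called, with log2FCs of 3.09 for Zbp1, 1.46 for Dhx58, 1.22 for Eif2ak2, 0.71 for Ifih1, 0.38 for Aim2 and 0.28 for Tlr7 (adjusted p at most 0.0338 by edgeR).

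**Figure D5:**
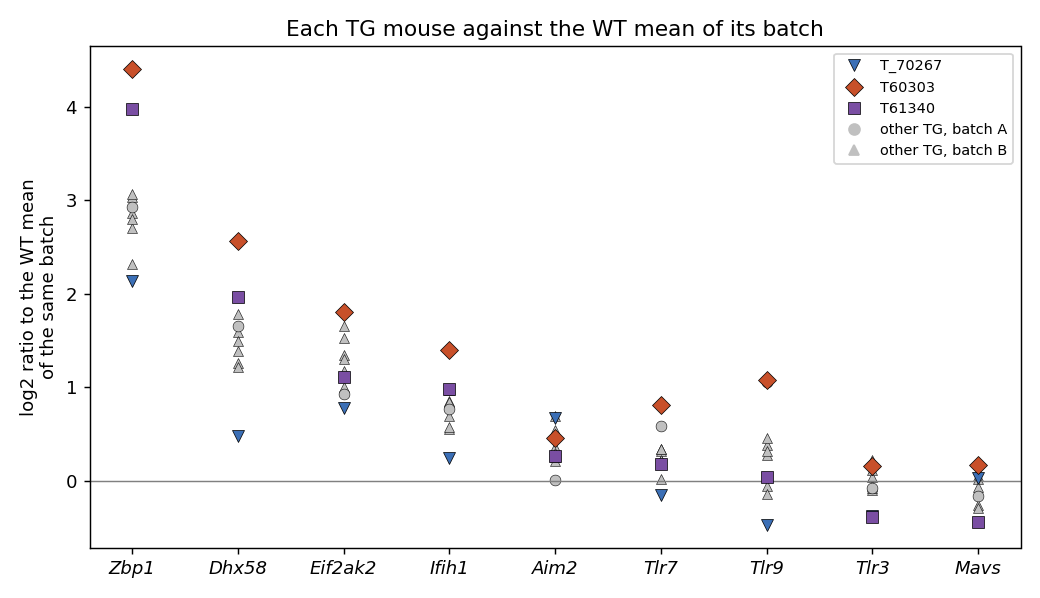
Log2 ratio of each TG mouse to the mean of the WT mice of its batch (vertical axis, with 1 normalized count added to both) for each sensor, with T60303, T61340 and T_70267 in colour and the other TG mice in grey. T60303 is at or near the top for each gene apart from Aim2, and T_70267 at or near the bottom for most, apart from Aim2 and Mavs.

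Markers of T cells and neutrophils had few reads. The T cell genes Cd3e, Cd3d and Cd3g had at most 3 reads in any mouse and the neutrophil gene Ly6g at most 1. Trac, another T cell gene, had 2 to 10 reads in WT and 3 to 13 in TG mice, and the neutrophil genes S100a8 and S100a9 had up to 12 and 13 in WT and up to 16 and 15 in TG mice. Summed T cell markers were 1.68 to 15.9 CPM in WT and 1.57 to 7.94 CPM in TG mice, most of it from Cd4, which was lower in TG mice by -1.24 on the log2 scale. None of 6 border macrophage markers was called, and their sums of 7.25 to 14 CPM in WT and 8.9 to 16.4 CPM in TG mice overlapped. Of 7 astrocyte markers 5 were lower and Gfap was higher by 1.03, and of 8 neuronal markers 5 were lower and 1 was higher, where 21.2% of all genes were lower and 22.4% higher.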

How the data were processed

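The authors deposited raw read counts per gene symbol, 1 column per mouse, without normalization. Reads were paired-end and aligned to GRCm38. The submitters' processing notes list HISAT, HISAT2, Bowtie, Bowtie2 and RSEM without their roles, and the program behind the counts and its use of strand are not given in the sources used here. Mice were grouped by genotype and batch from the labels. The genes of the set, the 9 pathway lists and the 13 marker lists were chosen with earlier results of these data known.

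Counts were filtered by expression (minimum count 10, minimum total 15) with the fitted design, normalized by TMM and tested for genotype with batch as covariate by the quasi-likelihood test of edgeR 4.0.16 in R 4.3.3, two-sided, with Benjamini-Hochberg adjustment over all 19052 genes tested and a threshold of 0.05. The SE of a log2FC is its size divided by the square root of F. The procedure was run on simulated counts of 19052 genes, 200 of them changed, without a batch effect. In the data 8303 genes were called, so the simulation checks the code and not this comparison. Each gene of the set was described, as were 18 direct partners and, from each list, the 3 called genes of largest change in either direction, while other genes of the lists were named after their values were seen. Alternatives were DESeq2 1.42.0 with and without batch, edgeR without batch, library size only, upper-quartile normalization, other filters, single batches, leaving out mice, leaving out 2553 further copies of symbols (4.11% of counts), and Xist as covariate. The filter with genotype as group was added after seeing the data. Limits of 3 reads cover counting error only. Exon lengths and overlaps came from GENCODE M21 and positions from RefSeq. The labels name single mice, so the spread is that between mice. No sample was left out. Some marker genes are not reported here.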

Additional observations from a re-analysis of the deposited data

How the results depend on the processing

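The number of sensors called higher was 6 in most alternatives, 7 with library size only, 5 in batch B alone and when 10 reads were required in every mouse (which leaves out Zbp1), 4 in batch A alone, and 6 to 7 when single mice were left out. None was called lower in any alternative. Zbp1, Dhx58, Eif2ak2 and Ifih1 kept direction and call in every alternative that tested them (33 or 34). The number of all genes called was 8303, 2195 in batch A alone, which has fewer mice, 8154 with the filter by genotype group, and 7908 to 8514 when single mice were left out. Signs reversed only for values near 0. With library size only, which moved the median of all genes by 0.08, Tlr3 became 0.04, Mavs 0.02, Myd88 0.07 and Adar 0.05. Myd88 was 0.00 with no filter and 0.01 in batch A alone, where Adar was 0.09. When single mice were left out, Tlr3 ranged from -0.07 to 0.00 and Myd88 from -0.04 to 0.01. The cause of these reversals was not tested. No paired analysis was made because the labels used here do not give the litter of each mouse. At this depth, genes with few reads, such as Zbp1 in WT mice and the interferons, are measured least precisely.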
